A study of Homo sapiens with 2 samples.

Results

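Peroxiredoxins, thioredoxin and the superoxide dismutases are among the proteins that help to clear superoxide and hydrogen peroxide from a cell. The members described here were the 10 genes PRDX1, PRDX2, PRDX3, PRDX4, PRDX5, PRDX6, TXN, TXNRD1, SOD1 and SOD2, chosen by name, and all 10 were among the 11619 genes listed in both deposited files. They were grouped by the compartment of the protein, with 6 genes of the cytosol, 1 of the endoplasmic reticulum (ER) and 3 of the mitochondria.

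NB4 is a human line of acute promyelocytic leukemia (APL) with the fusion protein PML/RARα. RNA was sequenced from NB4 cells on day 3 after infection with a lentivirus carrying an shRNA against the long non-coding RNA CRNDE (sh-CRNDE) or a non-targeting shRNA (sh-Control), with 1 library in each group (the control and the knockdown library). The study asked which transcripts change when CRNDE is knocked down, and the sources do not say which of its CRNDE shRNAs the sequenced cells carried. With 1 library per group no difference can be set against the spread between replicates, so no test was made.

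Superoxide, which leaks from the respiratory chain and is made on purpose by phagocyte oxidases, is turned into hydrogen peroxide by the superoxide dismutases. Peroxiredoxins then reduce the peroxide with a cysteine in their active site. The oxidized cysteine of most peroxiredoxins is restored by thioredoxin, and thioredoxin reductase restores thioredoxin with electrons from NADPH. Myeloid cells rely on these enzymes because they make peroxide as a weapon and myeloperoxidase uses it in their granules.

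Levels are given in FPKM, a count of fragments divided by transcript length and by the mapped fragments of the library, which can be set side by side between genes of one library. A change is the log2(FPKM + 1) value of the knockdown library minus that of the control library, which understates the change of genes with low levels. CRNDE itself was at 5.92 FPKM in control cells and 1.85 FPKM after knockdown, a change of -1.28. Of the 7 promyelocyte marker genes, 5 were listed, and the granule enzyme gene MPO had 1135 FPKM in the control library and 738 FPKM in the knockdown library. Of the 5 genes, 4 were lower past 1.5-fold, against 8.83% of all genes, and their part in the values below was not tested. The change of MPO was -0.62, and it was -1.54 after quantile normalization. It was -0.44, no longer past the threshold, after the median change of genes in its bin of GC content was subtracted. The mitochondrial ribosomal RNA gene MT-RNR2 was at 0 in the control library and 27614 FPKM in the knockdown library. All FPKM values summed to 141217 and 170373. The part of MT-RNR2 in the quantile-normalized value of MPO was not tested. The summed level of all 5 was 1404 FPKM in control cells and 813.5 FPKM after knockdown, while ELANE and KIT had no row in the files used here. The 2 listed monocyte markers differed in direction, with CSF1R at 1.14 FPKM in control cells and 0.559 FPKM after knockdown and LYZ at 21.9 and 32.1 FPKM, and CD14 and FCGR3A had no row. None of the 8 erythroid markers had a row, and the markers of T cells, B cells and epithelial cells that were listed summed to at most 4.82 FPKM per list. In bulk RNA, fewer cells of a type and less RNA per cell cannot be told apart.

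Transcripts of the antioxidant enzymes were, apart from SOD2, abundant in both libraries, and they differed little between them. None of the 10 genes was past 1.5-fold, against 17.2% of all 11619 genes (8.38% higher and 8.83% lower). The members had changes from -0.17 for PRDX2 to 0.25 for TXN, with 6 genes higher and 4 lower in sh-CRNDE. Their median change was 0.07, against -0.01 over all genes, and 0 members were past 1.5-fold under every scaling and pseudocount tried. The direction of PRDX4 and PRDX2 depended on the scaling. PRDX4 turned from 0.03 to -0.03 after quantile normalization, and PRDX2 from -0.17 to 0.01 once the typical change at its GC content was subtracted (the median over the genes of its bin, of 20 bins of GC content).

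**Figure D1:**
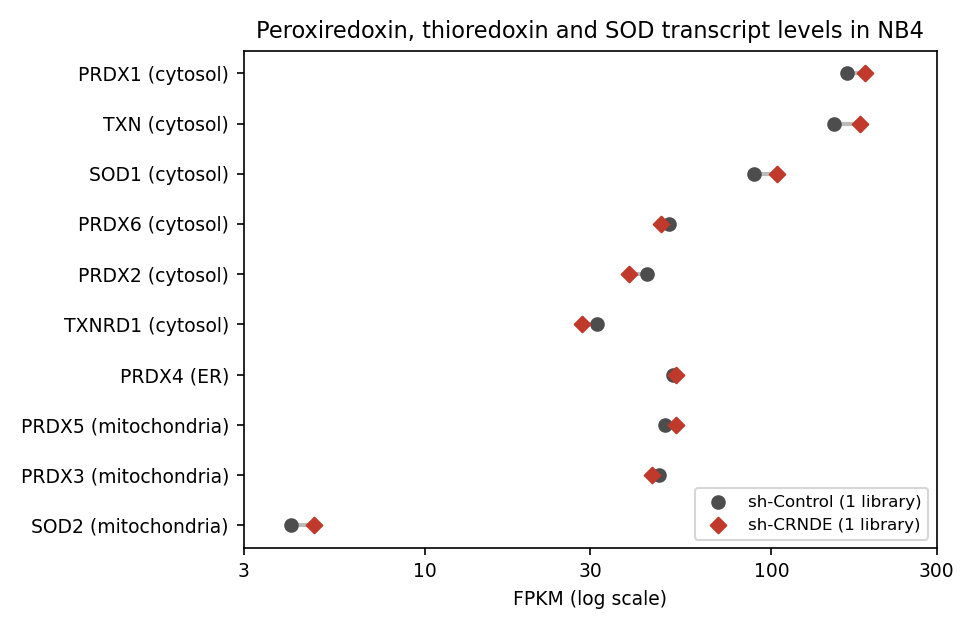
Level of each gene in FPKM on a log axis, with the sh-Control library as a grey circle and the sh-CRNDE library as a red diamond, 1 library each, ordered within the compartment of the protein. PRDX1 and TXN lie highest and SOD2 lowest in both libraries, and the 2 symbols of each gene lie close together.

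The cytosolic peroxiredoxins were led by PRDX1. PRDX1 (ENSG00000117450, chromosome 1, 45510914 to 45542732, minus strand, GRCh38) encodes the main peroxidase of the cytosol, which also acts as a chaperone when it is overoxidized. It had 165.8 FPKM in the control library and 186.8 FPKM in the knockdown library, a change of 0.17. PRDX1 was higher than every other member in both libraries, at rank 86 of all listed genes in sh-Control and rank 76 in sh-CRNDE. PRDX2 (ENSG00000167815, chromosome 19, 12796820 to 12801800, minus strand), best known as an abundant protein of red blood cells, had 43.8 FPKM in control cells and 38.8 FPKM after knockdown. Its change of -0.17 was the lowest of the 10 genes. The change of PRDX1 was 0.07 after quantile normalization and 0.09 after the subtraction for GC content. PRDX6 (ENSG00000117592, chromosome 1, 173477330 to 173488815, plus strand), which uses glutathione in place of thioredoxin and also has phospholipase activity, had 50.8 FPKM in the control library and 47.9 FPKM in the knockdown library. PRDX6 was at 94.3% of its control level, a change of -0.08, and larger changes in size were found in 81.9% of all genes.

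The thioredoxin pair moved in opposite directions by small amounts. TXN (ENSG00000136810, chromosome 9, 110243810 to 110256507, minus strand) encodes the cytosolic thioredoxin, the small protein that hands electrons to peroxiredoxins, ribonucleotide reductase and other clients. TXN had 151.4 FPKM in control cells and 180.5 FPKM after knockdown, which is 19.3% higher, and its change of 0.25 was the highest among the members. Of all genes, 49.1% had a change larger in size than that of TXN. TXNRD1 (ENSG00000198431, chromosome 12, 104215779 to 104350307, plus strand) encodes the cytosolic thioredoxin reductase, a selenoprotein. TXNRD1 had 31.4 FPKM in the control library and 28.4 FPKM in the knockdown library, a change of -0.14. The level of TXN was 4.82 times that of TXNRD1 in sh-Control and 6.36 times in sh-CRNDE. After the subtraction for GC content the change of TXN was 0.06 and that of TXNRD1 was -0.22.

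The starts of the pair differ in sequence. Of 12 promoter windows that RefSeq gives for 7 of the members (GRCh38.p14, from 250 bases before to 50 bases after a transcription start), only the TXN window holds a TATA box, searched as TATAAA on both strands, against 11.5% of 35116 windows of all genes. Only TXNRD1 windows hold the core of the antioxidant response element, the sequence that the transcription factor NRF2 binds with small MAF proteins, searched as TGACNNNGC on both strands. TXNRD1 has 2 windows and both hold it. Over the members this is 2 of 12 windows, or 16.7%, near the 13.3% of all windows. PRDX1, PRDX6 and SOD1 were not matched in the RefSeq table. The windows around these starts are shown because the pair has such different levels and because NRF2 and its partners were among the genes with larger changes below. Each runs from 110 bases before the start to 20 bases after it, 5′ to 3′ on the strand of the gene, with the matches in capitals. The capitals in the TXN window are overlapping TATAAA matches on the opposite strands, and those in the TXNRD1 windows are the response element core or its reverse complement.
TXN, chr9:110256488-110256617, minus strand: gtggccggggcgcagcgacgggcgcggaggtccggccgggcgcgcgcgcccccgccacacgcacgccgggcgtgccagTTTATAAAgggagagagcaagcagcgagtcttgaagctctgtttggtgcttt
TXNRD1 upstream start, chr12:104215669-104215798, plus strand: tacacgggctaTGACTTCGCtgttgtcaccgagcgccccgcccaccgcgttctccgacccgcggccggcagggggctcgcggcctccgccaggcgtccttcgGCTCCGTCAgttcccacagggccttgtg
TXNRD1 downstream start, chr12:104286922-104287051, plus strand: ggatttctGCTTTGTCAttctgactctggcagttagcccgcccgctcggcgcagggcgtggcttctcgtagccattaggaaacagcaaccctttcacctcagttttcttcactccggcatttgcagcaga
In the upstream TXNRD1 window the matches begin at positions -99 and -8 from the start, and in the downstream window at position -102. A GC box, searched as GGGCGG on both strands, was in all 12 member windows and in 45.0% of all windows. A match describes these letters and is not evidence of binding.

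SOD1 (ENSG00000142168, chromosome 21, 31659666 to 31668931, plus strand), the copper and zinc enzyme of the cytosol, had 89.4 FPKM in control cells and 104.05 FPKM after knockdown. It was 16.4% higher in sh-CRNDE, a change of 0.22, and 73.6% of all genes had a lower change. Summed over PRDX1, PRDX2, PRDX6, TXN, TXNRD1 and SOD1, the cytosolic genes had 532.6 FPKM in the control library and 586.5 FPKM in the knockdown library. This sum was 10.1% higher in sh-CRNDE, and PRDX1, TXN and SOD1, the most abundant of them, were the cytosolic genes that were higher. PRDX2, PRDX6 and TXNRD1 were lower. The sum was not recomputed after quantile normalization or the subtraction for GC content. The changes of PRDX1, TXN and SOD1 were 0.07, 0.15 and 0.21 after the former and 0.09, 0.06 and 0.14 after the latter. The latter also lowered PRDX6 and TXNRD1 and raised PRDX2. The size of the difference in the sum thus depends on the scaling.

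In the ER, PRDX4 (ENSG00000123131, chromosome X, 23664262 to 23686397, plus strand) encodes the peroxiredoxin that uses peroxide to oxidize protein disulfide isomerases while secretory proteins fold. PRDX4 had 52.02 FPKM in control cells and 52.99 FPKM after knockdown. Its change of 0.03 was the smallest of the 10 genes, and 94.5% of all genes had a change larger in size.

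Among the mitochondrial genes, the peroxiredoxins were near 50 FPKM and the dismutase was far lower. PRDX3 (ENSG00000165672, chromosome 10, 119167720 to 119178812, minus strand), the peroxiredoxin of the mitochondrial matrix, had 47.4 FPKM in the control library and 45.2 FPKM in the knockdown library, a change of -0.07. PRDX5 (ENSG00000126432, chromosome 11, 64318121 to 64321811, plus strand), an enzyme that is also found in peroxisomes and cytosol, had 49.4 FPKM in control cells and 53.2 FPKM after knockdown, a change of 0.11. The change of PRDX5 was 0.33 after the subtraction for GC content, the highest value that any of the 10 genes reached under an alternative, and still below 1.5-fold. SOD2, the manganese enzyme of the matrix, had 4.102 FPKM in the control library and 4.78 FPKM in the knockdown library, a change of 0.18. SOD2 was the least abundant member in both libraries, near the middle of all genes, since 51.0% of genes were lower than it in sh-Control and 55.6% in sh-CRNDE.

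The file gives SOD2 under the identifier ENSG00000112096, which GENCODE release 44 does not hold. The gene of the same symbol in that release runs from 159669069 to 159762529 on the minus strand of chromosome 6, and its canonical transcript has 14167 nucleotides. FPKM is per length of transcript, and the transcript model behind the SOD2 value is not given in the sources used here. WTAP and ACAT2 overlap this range on the opposite strand, with 16.2 and 12.3 FPKM in sh-Control and 18.9 and 13.5 FPKM in sh-CRNDE. Whether the strand was used when the reads were counted is not stated. With this limit, the level of SOD1 was 21.8 times that of SOD2 in both libraries. Summed over PRDX3, PRDX5 and SOD2, the mitochondrial genes had 100.9 FPKM in control cells and 103.2 FPKM after knockdown. This sum was 2.28% higher in sh-CRNDE, and it was lower (-0.04 on the log2 scale) when PRDX5 was counted with the cytosol.

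The study examined the miR-181 family as RNAs that bind CRNDE, so the 3' UTRs of the members were searched for sites that match the seed of this family, bases 2 to 8 of the mature miRNA. The RefSeq sequences are shown with the seed, which all 4 share, in capitals.
miR-181a-5p: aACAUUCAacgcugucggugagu
miR-181b-5p: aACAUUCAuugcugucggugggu
miR-181c-5p: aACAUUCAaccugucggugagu
miR-181d-5p: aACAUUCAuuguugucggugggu
In the canonical GENCODE transcripts, a match to TGAATGT was found in the 3' UTRs of PRDX3 and SOD2 and of no other member. Such a match was in 21.4% of the 9946 listed protein-coding genes that have a 3' UTR. The 3' UTR of PRDX3 has 760 bases and 2 matches, and that of the canonical SOD2 transcript has 13424 bases and 3 matches. The first of the SOD2 matches lies near base 8779, and whether the transcript behind the SOD2 value holds them is not known. The PRDX3 sites are shown with the match in capitals, 5′ to 3′ on the minus strand of GRCh38, because they lie in a UTR of ordinary length.
PRDX3 first site, chr10:119168072-119168100: aattttcatctTGAATGTctttgtattaa
PRDX3 second site, chr10:119167989-119168017: aactcctgcaaTGAATGTttatgtgattg
PRDX3 (-0.07) and SOD2 (0.18) differed in direction between the libraries, and neither was past 1.5-fold. After the subtraction for GC content the changes were -0.22 for PRDX3 and 0.05 for SOD2. The GC content of SOD2 was that of the canonical transcript, which may not be the model behind its FPKM value. A seed match is a description of sequence, and repression of these genes was not measured.

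The order of the levels was PRDX1, TXN, SOD1, PRDX4, PRDX6, PRDX5, PRDX3, PRDX2, TXNRD1 and SOD2 in sh-Control. In sh-CRNDE the order was the same except that PRDX5 stood above PRDX4 and PRDX6. The 5 genes from PRDX4 to PRDX2 lay between 43.8 and 52.02 FPKM in sh-Control and between 38.8 and 53.2 FPKM in sh-CRNDE, and without replicates neighbours in this range cannot be ordered. Of the 476 genes that averaged 50 FPKM or more, 16.4% were past 1.5-fold, and 5 of the 10 members are among these 476.

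**Figure D2:**
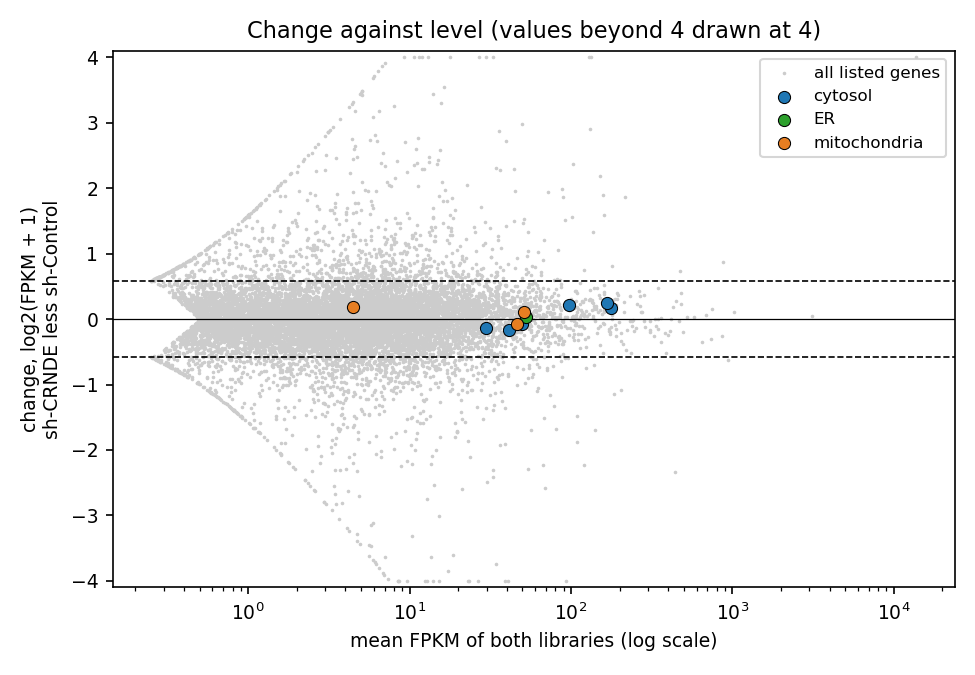
Change of each of the 11619 listed genes on the log2(FPKM + 1) scale against the mean FPKM of both libraries on a log axis, with the 10 antioxidant genes coloured by compartment and dashed lines at 1.5-fold. All 10 coloured points lie between the lines, from -0.17 to 0.25. Changes beyond the range of the axis are drawn at its edge.

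Within the peroxiredoxins the make-up of the transcripts was dominated by PRDX1. The 6 genes summed to 409.2 FPKM in the control library and 424.9 FPKM in the knockdown library. PRDX1 made up 40.5% of this sum in sh-Control and 43.95% in sh-CRNDE. The share of PRDX2 was 10.7% in sh-Control and 9.14% in sh-CRNDE. The level of PRDX1 was 3.79 times that of PRDX2 in sh-Control and 4.81 times in sh-CRNDE. On the log2 scale this ratio changed by 0.35, and by 0.26 after quantile normalization. After the subtraction for GC content the changes of PRDX1 (0.09) and PRDX2 (0.01) lay close together. The shift between PRDX1 and PRDX2 thus depends on the scaling, and the shares were not recomputed under the alternatives. The other four genes each made up between 10.6% and 12.7% in either library. The level of PRDX3 was 11.6 times that of SOD2, its partner in the matrix, in sh-Control and 9.47 times in sh-CRNDE.

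Reads of some members can also come from processed copies elsewhere in the genome. GENCODE release 44 names 7 pseudogenes of TXN, 4 of PRDX2, 4 of PRDX3 and 3 of SOD1, and how shared reads were assigned cannot be read from the FPKM values. Under such a name only PRDX3P2 was listed, with 0.560 FPKM in control cells and 0.646 FPKM after knockdown.

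In 7 lists of redox genes with 92 different genes, 82 were listed, of which 9 were higher past 1.5-fold and 7 lower, or 19.5%, against 17.2% of all genes. The change of 38 of the 82 genes was larger in size than that of TXN, as it was in 49.1% of all genes. The median change of the 82 genes was 0.05.

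Among the partners of thioredoxin, 2 of 16 listed genes were higher past 1.5-fold and none was lower. This is 12.5%, against 17.2% of all genes, and the median change of the list was 0.21. TXNIP, the protein that binds and inhibits thioredoxin, had 10.4 FPKM in the control library and 19.5 FPKM in the knockdown library, a change of 0.85. RRM2B, a ribonucleotide reductase subunit induced by p53, had 2.94 FPKM in control cells and 7.04 FPKM after knockdown, a change of 1.03. TXNIP and RRM2B stayed past 1.5-fold under every scaling and pseudocount tried. The most abundant genes of the list, the ribonucleotide reductase subunits RRM2 (37.95 FPKM in control cells and 54.6 FPKM after knockdown) and RRM1 (34.1 and 42.2 FPKM), were not past the threshold. Neither was SRXN1, the sulfiredoxin that repairs overoxidized peroxiredoxins, with 16.9 FPKM in control cells and 14.6 FPKM after knockdown.

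Of 17 listed genes of the glutathione system, 1 was higher and 1 lower past 1.5-fold, or 11.8%, against 17.2% of all genes. GCLM, the regulatory subunit of the enzyme that begins glutathione synthesis, had 3.22 FPKM in the control library and 7.42 FPKM in the knockdown library, a change of 0.99. GPX1, a selenium-containing glutathione peroxidase, had 1.80 FPKM in control cells and 0.859 FPKM after knockdown, a change of -0.59 that was just past the threshold. GPX1 was not past it after centring (-0.58), quantile normalization (-0.57) or the subtraction for GC content (-0.33), and its change was -0.98 and -1.06 with pseudocounts of 0.1 and 0.01 and -0.96 after rescaling to TPM without mitochondrial, ribosomal and small RNA genes. Its processed copy GPX1P1 had 12.9 FPKM in the control library, and the knockdown library lists it at 0, so the value of GPX1 is uncertain, and the summed change of both was -3.08. GPX4 had 25.8 FPKM in the control library and 17.0 FPKM in the knockdown library. Its change of -0.58 was just short of the threshold, and a smaller pseudocount makes it larger in size. The glutathione transferases with the highest levels were not past 1.5-fold either. GSTP1 had 118.5 FPKM in the control library and 101.2 FPKM in the knockdown library, and GSTO1 had 50.2 and 58.2 FPKM.

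None of the 3 listed genes beside the dismutases was past 1.5-fold, against 17.2% of all genes. Catalase, CAT, which breaks down peroxide in peroxisomes, had 38.5 FPKM in control cells and 30.6 FPKM after knockdown, a change of -0.32. PARK7, a protein that senses peroxide, had 57.8 FPKM in the control library and 54.05 FPKM in the knockdown library. The extracellular dismutase SOD3 had no row.

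Around PRDX4 in the ER, 1 of 18 listed genes of oxidative folding was higher and 2 were lower past 1.5-fold. This is 16.7%, against 17.2% of all genes. TXNDC5, a disulfide isomerase with thioredoxin domains, had 30.2 FPKM in control cells and 77.4 FPKM after knockdown, a change of 1.33. TMX4, a membrane-bound thioredoxin-like protein, had 15.3 FPKM in the control library and 2.44 FPKM in the knockdown library, a change of -2.24, lower than that of all but 0.611% of genes. TXNDC12 had 23.3 FPKM in control cells and 14.8 FPKM after knockdown, a change of -0.62. The isomerases PDIA3 (152.4 FPKM in the control library and 165.8 FPKM in the knockdown library) and P4HB (99.8 and 113.1 FPKM), the most abundant of the list, had changes of 0.12 and 0.18. The change of PDIA3 was 0.00 after quantile normalization, and that of P4HB was 0.34 after the subtraction for GC content.

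Genes of the NRF2 pathway, which controls TXNRD1, SRXN1 and PRDX1 in many cells, were the redox list with the highest share past 1.5-fold, 8 of 19 listed genes or 42.1%, with 5 higher and 3 lower, against 17.2% of all genes. This list, like the others, was chosen with earlier results of these data known, and nothing particular to it is read from its share. The median change of the list was -0.10. NFE2L2, which encodes NRF2, had 6.07 FPKM in control cells and 11.5 FPKM after knockdown, a change of 0.83. BACH1, a repressor at the same response elements, had 3.09 FPKM in the control library and 8.48 FPKM in the knockdown library, a change of 1.21. KEAP1, which holds NRF2 in the cytosol for degradation, had 44.9 FPKM in control cells and 29.6 FPKM after knockdown. Its change of -0.58 was just short of the threshold, and a smaller pseudocount makes it larger in size. The list had 9 genes past the threshold with a pseudocount of 0.1 or 0.01, and 7 after the subtraction for GC content. NFE2L2 and BACH1 were higher after knockdown and KEAP1 was lower.

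Their small MAF partners differed in direction. MAFG had 1.64 FPKM in control cells and 12.4 FPKM after knockdown, a change of 2.34, and MAFK had 12.2 FPKM in the control library and 5.15 FPKM in the knockdown library, a change of -1.10. SIRT7, on the same strand, and a lncRNA on the other strand overlap the MAFG locus, and AGPS and HNRNPA3 overlap that of NFE2L2 on the opposite strand. AGPS had 8.30 FPKM in control cells and 20.3 FPKM after knockdown, and HNRNPA3 had 32.6 and 46.7 FPKM. The part of AGPS and HNRNPA3 in the value of NFE2L2 was not tested.

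The targets were divided as well. Besides GCLM, the quinone reductase gene NQO1 was higher, with 8.83 FPKM in the control library and 14.9 FPKM in the knockdown library, a change of 0.70. FTH1, the ferritin heavy chain, had 253.1 FPKM in control cells and 114.04 FPKM after knockdown, a change of -1.14, and summed with its 5 listed pseudogenes the change was -1.09. FTL, the ferritin light chain, had 329.03 FPKM in the control library and 292.2 FPKM in the knockdown library. SQSTM1, an autophagy receptor, was at 10.9 FPKM in control cells and 6.90 FPKM after knockdown, a change of -0.60 that was -0.43 after the subtraction for GC content. Among the 10 genes, those named above as controlled by NRF2, PRDX1 (0.17) and TXNRD1 (-0.14), lay on either side of 0. Control of any of the 10 genes by NRF2 in these cells was not tested.

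Of 11 listed genes that supply NADPH, 1 was past 1.5-fold, or 9.09%, against 17.2% of all genes. MTHFD2, a mitochondrial enzyme of folate metabolism, had 46.5 FPKM in the control library and 24.3 FPKM in the knockdown library, a change of -0.91. PGD, an enzyme of the pentose phosphate pathway, had 58.97 FPKM in control cells and 58.1 FPKM after knockdown. Of 5 listed genes that make selenoproteins such as TXNRD1, SEPSECS alone was past 1.5-fold, with 2.50 FPKM in the control library and 4.80 FPKM in the knockdown library, a change of 0.73 that was 0.56 after the subtraction for GC content. SEPHS1 (18.04 FPKM in control cells and 20.8 FPKM after knockdown) and EEFSEC (7.68 and 9.57 FPKM) were not past it.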

How the data were processed

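RNA of 2 libraries of NB4 cells, 1 sh-CRNDE and 1 sh-Control, was made into TruSeq libraries and read on a MiSeq instrument. The authors deposited FPKM values per gene, and the submitters' processing notes name fastp 0.20.0, HISAT2 2.0.4, StringTie 1.2.3 and GRCh38. The annotation is not given in the sources used here. Every listed gene was above 0.5 FPKM in at least 1 library. Depth is unknown, since the FPKM values keep no counts, so no counting interval is given. Groups came from the sample titles.

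All genes were kept, and log2(FPKM + 1) was subtracted without further scaling. A gene past 1.5-fold (0.585 on the log2 scale) is described as higher or lower past it. The members and redox lists were chosen with earlier results of these data known. Named genes are the members, CRNDE, and in each list the genes past 1.5-fold and the 2 with the highest mean FPKM. SRXN1, SOD3, KEAP1, GPX4, MT-RNR2, the cell type markers and genes overlapping a named locus or copied from it were added after the values were seen. Of the identifiers, 11508 matched GENCODE release 44 and 111 did not. Python 3.11.15, numpy 2.4.6, pandas 2.3.3 and matplotlib 3.10.9 were used.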

Additional observations from a re-analysis of the deposited data

How the results depend on the processing

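The changes were recomputed with pseudocounts of 0.1 and 0.01, after centring, after quantile normalization, in TPM without mitochondrial, ribosomal and small RNA genes, after subtraction of the median change in bins of GC content, and with a 2-fold threshold and filters on low values. With neither replicates nor depth, a value was taken to have moved when it differed by 0.1 or more on the log2 scale, and a count when it differed by more than 1.5 times. No paired analysis was possible because each group holds 1 library. Of 60 values of member changes under these alternatives 6 moved, 5 of them with GC content, and their range was -0.22 to 0.33. Of 180 such values of 30 other named genes 48 moved and none of the called changes turned in sign. The median change of the members moved under none of the alternatives run for it, and the count of members past the threshold was 0 in each. The sums by compartment were rerun only with PRDX5 in the cytosol, after centring and in TPM, and did not move. Centring and TPM shift every sum by the same small amount, so they could not move them. The ratios were rerun only after quantile normalization. There TXN to TXNRD1 (0.399 before and 0.304 after) stayed just within the limit. Neither the sums nor the ratios were rerun after GC subtraction. All genes past 1.5-fold numbered 2000, and 3301 with a pseudocount of 0.1, 3481 with 0.01, 3226 in TPM without those genes, 774 past 2-fold and 78 among genes that averaged 50 FPKM or more. For the glutathione system the count of 2 was 4 with a pseudocount of 0.1 or in TPM, 5 with 0.01, 1 after centring or GC subtraction and 0 past 2-fold. For ER oxidative folding it was 5 in place of 3 with either pseudocount. For the partners of thioredoxin it was 4 in place of 2 with a pseudocount of 0.01 and 1 past 2-fold. Past 2-fold, the NRF2 list had 4 genes in place of 8, and NADPH supply and selenoprotein synthesis 0 in place of 1, and the latter also had 0 after GC subtraction. The stricter threshold and the filter can only lower these counts, and a smaller pseudocount can only raise them. Rescaling to TPM enlarges the values while the pseudocount of 1 stays, so it acts in part like a smaller pseudocount and is not independent of that setting. Why the counts moved under the other settings was not tested.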
